A study of Rattus norvegicus with 9 samples.

Results

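The levels of 8 genes of cell death and of the p53 response were followed in rat bone marrow cells: Bcl2l11, Bak1, Bcl2, Pdcd4, Btg2, Ccng1, Xpc and Sesn1. They are 8 of the 26249 genes and gene units in the data, and were chosen by name and gene ID. The gene IDs came from the tables of the paper, where 3 of the 8 (Bcl2l11, Pdcd4 and Xpc) were found through its list of differentially expressed genes. For those 3 a difference between NPCs and MSCs was therefore to some degree built in. MSCs were mesenchymal stem cells at passage 3 from the bone marrow of Sprague-Dawley rats 4 weeks old, left uninduced. Neural progenitor-like cells (NPCs) were MSCs of that passage kept for 3 days with EGF and bFGF, and NPCs with IGF-1 were kept for 3 days with EGF, bFGF and IGF1. Each of the 3 groups had 3 libraries of polyadenylated RNA, prepared with a stranded kit, and 300 ng of total RNA went into each. For the induction, the methods of the study also changed the medium to NeuroCult NS-A and the dish to ultra-low attachment plates, where the cells grew as floating spheres, so that growth factors, medium and suspension cannot be told apart. The MSCs are a primary culture of marrow cells. No dose of IGF1 was found in the sources.

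Apoptosis through mitochondria is set by the BCL-2 family. BH3-only proteins such as BIM, the product of Bcl2l11, bind and silence guardians such as BCL-2 and help to switch on the pore formers BAK, the product of Bak1, and BAX, which then open the outer membrane of mitochondria. The factor p53 responds to DNA damage and other stress and activates genes that halt the cell cycle, repair DNA, restrain growth signalling or kill the cell. Btg2, Ccng1, Xpc and Sesn1 are well-known targets of p53 from these non-lethal branches. Pdcd4, first found as a gene raised in dying cells, encodes an inhibitor of the translation helicase eIF4A. In several cell types growth factor signalling through AKT and ERK keeps BIM low, partly by holding FoxO factors, which activate Bcl2l11, out of the nucleus.

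Levels are FPKM, the deposited unit of fragments set against transcript length and library size, added over all isoforms of a gene whether annotated or not. FPKM are per length, so that genes can be set side by side. The widths of the deposited confidence intervals implied depths of 37.4 to 49.0 M reads per library. Fold changes were fitted with limma on log2(FPKM + 0.1) over all genes, which understates the change of genes near 0.1 FPKM. A call needed a Benjamini-Hochberg adjusted p no higher than 0.05 and a log2 fold change no smaller in size than 1. The methods describe the MSC and NPC libraries as biological replicates from 3 rats, the NPCs being made from the MSCs of those rats. The labels do not say which libraries share a rat, and the main fit used no pairing. The methods do not describe the libraries with IGF-1, whose spread may be technical only, and p-values then measure only that.

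Promoters of 4 of the genes are shown because they hold a short motif of a factor tied to these pathways. They are taken from RefSeq on build GRCr8, run from 250 bases before to 50 after the start of the gene, and were found for all 8 genes. The motif is in capitals. A p53 site was taken as a pair of 10-base elements of the p53 consensus at most 13 bases apart, with the core C and G of each element kept and at most 2 mismatches in all; the pattern reads alike on both strands. Such a site was in 3.53% of 33469 promoters, and one with at most 1 mismatch in 0.565%. Ccng1 had a site with 1 mismatch at -242 to -223 from the start and no gap between the elements, and Sesn1 one with 2 mismatches at -185 to -163. The FoxO motif GTAAACA, searched on both strands, was in 3.78% of promoters and, of the 8 genes, in that of Bcl2l11 at -204 to -198. The cyclic AMP response element TGACGTCA was in 1.83% of promoters and, of the 8, in that of Btg2 at -201 to -194. No motif overlapped another in these 4 windows. The matches describe the letters only, and no binding was measured.
Bcl2l11 (chr3:135819792-135820091, plus strand): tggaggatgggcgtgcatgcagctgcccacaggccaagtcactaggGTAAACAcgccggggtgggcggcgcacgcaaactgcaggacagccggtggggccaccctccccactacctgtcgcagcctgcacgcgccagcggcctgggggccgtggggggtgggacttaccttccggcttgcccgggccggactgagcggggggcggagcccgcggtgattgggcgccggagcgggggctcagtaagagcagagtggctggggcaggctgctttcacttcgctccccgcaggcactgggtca
Ccng1 (chr10:25684827-25685126, minus strand): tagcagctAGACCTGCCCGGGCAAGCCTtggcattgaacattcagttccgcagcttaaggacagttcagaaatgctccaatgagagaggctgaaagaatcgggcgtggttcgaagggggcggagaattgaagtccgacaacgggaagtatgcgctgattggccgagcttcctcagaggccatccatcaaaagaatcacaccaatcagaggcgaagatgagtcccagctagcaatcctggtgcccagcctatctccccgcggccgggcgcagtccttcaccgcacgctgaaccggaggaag
Sesn1 (chr20:46948469-46948768, plus strand): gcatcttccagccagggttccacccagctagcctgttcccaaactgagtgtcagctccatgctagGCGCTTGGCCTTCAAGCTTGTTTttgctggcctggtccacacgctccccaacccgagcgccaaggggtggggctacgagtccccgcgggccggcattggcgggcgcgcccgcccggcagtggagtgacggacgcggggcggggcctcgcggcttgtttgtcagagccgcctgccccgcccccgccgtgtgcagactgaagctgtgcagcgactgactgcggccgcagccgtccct
Btg2 (chr13:48087641-48087940, minus strand): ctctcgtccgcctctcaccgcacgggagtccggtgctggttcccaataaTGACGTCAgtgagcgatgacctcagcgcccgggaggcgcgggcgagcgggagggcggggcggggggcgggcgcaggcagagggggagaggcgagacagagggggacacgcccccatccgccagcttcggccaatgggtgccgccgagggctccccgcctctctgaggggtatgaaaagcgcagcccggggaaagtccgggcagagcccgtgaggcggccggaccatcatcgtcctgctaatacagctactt

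In MSCs the most abundant of the 8 was Ccng1, at 55.1 ± 3.95 FPKM (SD, n = 3). Btg2 followed at 29.4 ± 6.11 FPKM, Pdcd4 at 13.9 ± 0.773, Bak1 at 11.8 ± 0.751 and Xpc at 6.27 ± 0.543. At the low end were Sesn1 with 2.20 ± 0.332 FPKM, Bcl2l11 with 2.12 ± 0.858 and Bcl2 with 2.02 ± 0.179. The libraries of these last 3 genes overlapped, while each other neighbour in the order was apart. In NPCs Btg2 with 63.7 ± 21.3 FPKM and Ccng1 with 60.8 ± 9.93 overlapped at the top, and Bcl2l11 stood at 14.3 ± 7.20 FPKM beside Xpc at 14.9 ± 2.48, with overlapping libraries. In NPCs with IGF-1 Bcl2l11 stood at 18.7 ± 5.77 FPKM, above Xpc at 13.1 ± 0.545. That order rests on the sum of isoforms of unlike length: with isoforms weighted by the annotated exon bases they cover, Bcl2l11 was at 11.5, 20.6 and 6.47 and Xpc at 10.97, 13.2 and 12.2, which overlap. Bcl2 had the lowest mean of the 8 in every group.

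**Figure D1:**
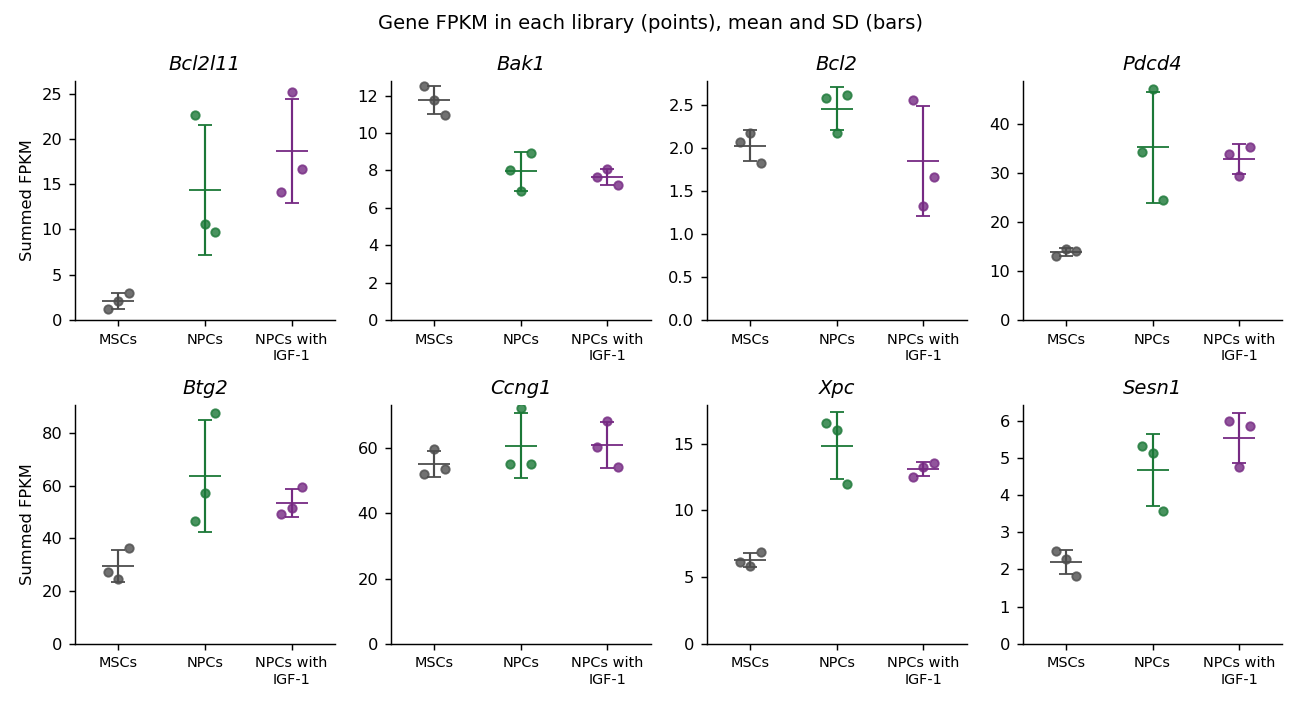
Summed FPKM of the 8 genes in each library of MSCs, NPCs and NPCs with IGF-1 (points, with mean and SD over 3 libraries; each panel has its own axis from 0). Bcl2l11, Pdcd4, Btg2, Xpc and Sesn1 were higher in all 6 induced libraries than in any MSC library, Bak1 was lower, and Bcl2 and Ccng1 overlapped.

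In NPCs against MSCs 4 of the 8 genes were called, all of them higher: Bcl2l11, Pdcd4, Xpc and Btg2. The first 3 are those found through the study's list of differentially expressed genes, which favours a call. Of the 5 others only Btg2 was called. Over all 13696 genes tested in that comparison 21.6% were called and 11.7% were called higher. An adjusted p of at most 0.05 without the fold threshold was met by 6 of the 8, which adds Sesn1 (higher) and Bak1 (lower), against 35.7% of all genes. The same 6 had libraries that did not overlap between the groups, and so did 49.8% of all genes. The median log2 fold change was 1.00 over the 8 genes and 0.03 over all genes. All 8 passed the filter on low values.

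In NPCs with IGF-1 against MSCs 3 of the 8 were called, all higher: Bcl2l11, Sesn1 and Pdcd4. Bcl2l11 and Pdcd4 are among those found through the study's list. Of 14228 genes tested 21.4% were called and 11.7% called higher. The same 6 genes as in NPCs met the adjusted p alone, against 38.8% of all genes, and the same 6 did not overlap with MSCs, against 54.4%. The median log2 fold change was 0.88 over the 8 and 0.05 over all genes. Both inductions were compared with the same 3 MSC libraries, so the likeness of their values is not independent. The MSC library numbered 3 bore on the count: without it 5 of the 8 were called with IGF-1, Btg2 (log2 fold change 1.01) and Xpc (1.09) being added.

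**Figure D2:**
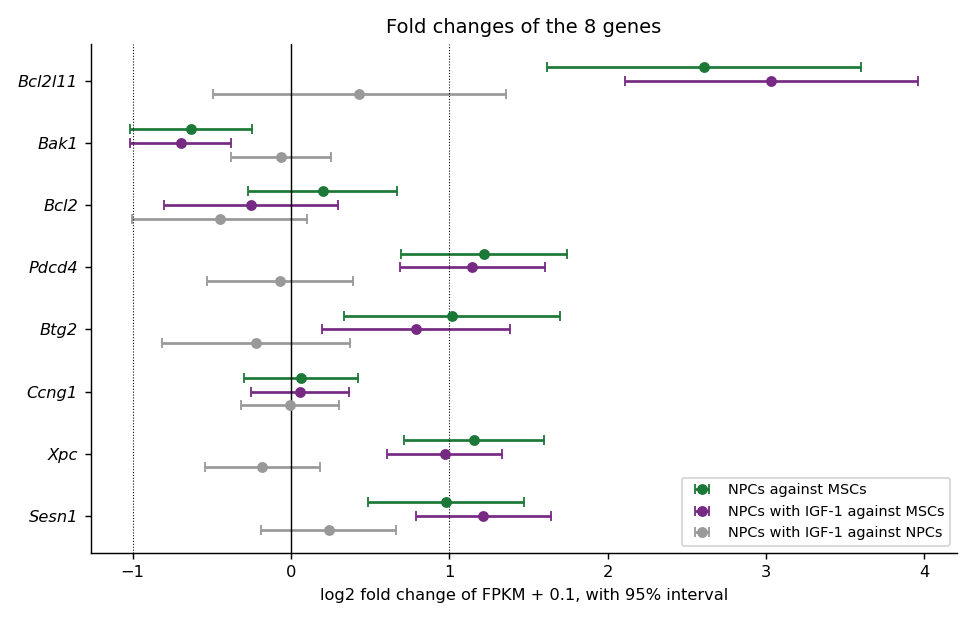
Fitted log2 fold changes of the 8 genes on log2(FPKM + 0.1) with 95% intervals, for the 3 comparisons; dotted lines mark a log2 fold change of 1 in either direction. Bcl2l11 lies farthest to the right in both comparisons with MSCs, and every interval of NPCs with IGF-1 against NPCs includes 0.

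Of the BCL-2 family, the killer Bcl2l11 was higher after induction, the pore former Bak1 lower, and the guardian Bcl2 did not pass the test. Bcl2l11 (ENSRNOG00000016551, chromosome 3, 126571721 to 126601829 on the minus strand, in the coordinates of the files, of an unnamed build) lies on the plus strand in RefSeq's GRCr8, and Xpc likewise has opposite strands in the files and GRCr8. The 5′ and 3′ ends given for isoforms follow the strand of the files. Bcl2l11 had 1.27, 2.09 and 2.98 FPKM in MSCs. It was at 22.6, 10.6 and 9.76 FPKM in NPCs and at 14.2, 25.2 and 16.7 with IGF-1. The lowest induced library was above the highest MSC library, and the induced libraries of a group spread widely. The fold change was 6.09 (95% interval 3.06 to 12.1) in NPCs and 8.20 (4.31 to 15.6) with IGF-1, with limma adjusted p of 0.00339 and 0.000495. Only 23 to 53 reads stood behind each MSC value, by the implied depth, against 548 to 1349 in induced libraries.

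Bak1 (ENSRNOG00000000485, chromosome 20, 7675062 to 7683674, minus strand) was at 12.5, 11.8 and 10.99 FPKM in MSCs, 8.02, 6.89 and 8.94 in NPCs and 7.65, 8.07 and 7.22 with IGF-1. Every induced library was below every MSC library. The fitted level was 0.646 times that of MSCs in NPCs (95% interval 0.494 to 0.844, adjusted p = 0.0220 by limma) and 0.617 times with IGF-1 (0.495 to 0.768, adjusted p = 0.00421). Neither reached the 2-fold threshold. In NPCs the adjusted p rose above 0.05 when any 1 of 4 libraries was left out, to 0.0617 without NPC 1, 0.0715 without NPC 2, 0.0717 without MSC 1 and 0.0501 without MSC 3. With annotated transcripts alone it passed 0.05 in both comparisons. The log2 fold change was then -0.46 in NPCs (adjusted p = 0.161 by limma) and -0.52 with IGF-1 (adjusted p = 0.0671).

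Bcl2 (ENSRNOG00000002791, chromosome 13, 31758213 to 31919850, minus strand) was at 2.07, 2.17 and 1.82 FPKM in MSCs, at 2.57, 2.17 and 2.62 in NPCs and at 2.55, 1.32 and 1.66 with IGF-1. All 3 groups overlapped. The log2 fold change against MSCs was 0.20 ± 0.20 (SE) in NPCs and -0.25 ± 0.24 with IGF-1, with limma adjusted p of 0.468 and 0.443. The intervals, 0.830 to 1.59 times and 0.573 to 1.23 times the MSC level, leave room for changes of that size.

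Pdcd4, the translation inhibitor (ENSRNOG00000014779, chromosome 1, 282038264 to 282061732, plus strand), was at 13.04, 14.5 and 14.1 FPKM in MSCs. It stood at 34.2, 47.0 and 24.4 FPKM in NPCs and at 33.9, 29.4 and 35.2 with IGF-1. The MSC libraries lay within a narrow range below all the others. Pdcd4 rose 2.33-fold in NPCs (95% interval 1.62 to 3.34, adjusted p = 0.00558 by limma) and 2.21-fold with IGF-1 (1.61 to 3.04, adjusted p = 0.00221). With annotated transcripts alone both calls were lost, at log2 fold changes of 1.35 (adjusted p = 0.167) and 1.06 (adjusted p = 0.165).

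Among the p53 targets, Xpc, Btg2 and Sesn1 were higher after induction and Ccng1, the most abundant in MSCs, was not shown to move. Xpc (ENSRNOG00000008274, chromosome 4, 187383715 to 187411243, plus strand) encodes the sensor that finds DNA lesions for nucleotide excision repair. It was at 6.10, 5.84 and 6.88 FPKM in MSCs, at 16.6, 16.0 and 12.0 in NPCs and at 12.5, 13.3 and 13.6 with IGF-1. The groups were wide apart for their spread. The log2 fold change was 1.15 ± 0.19 in NPCs (adjusted p = 0.00341 by limma) and 0.97 ± 0.16 with IGF-1 (adjusted p = 0.00156), the latter just short of 1. It passed 1 without library 1 of the IGF-1 group (1.00) and without MSC library 3 (1.09).

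Sesn1 (ENSRNOG00000000302, chromosome 20, 48347551 to 48437686, plus strand) encodes sestrin 1, a stress protein that restrains mTORC1. It was at 2.48, 2.28 and 1.84 FPKM in MSCs, 5.32, 5.14 and 3.57 in NPCs and 5.99, 4.77 and 5.85 with IGF-1. The lowest induced value was above the highest MSC value. Its fold change was 2.32 with IGF-1 (95% interval 1.73 to 3.12, adjusted p = 0.00109 by limma). That call was lost with a pseudocount of 1 (log2 fold change 0.97) and with annotated transcripts alone (0.93, adjusted p = 0.288). In NPCs it was 1.97 (1.40 to 2.78, adjusted p = 0.0106), and the call turned on the threshold. The log2 fold change was 0.98, and was 1.15 without NPC library 3 and 1.03 without MSC library 1. It fell to 0.75 with quantile normalisation (adjusted p = 0.0318 by limma) and to 0.58 with annotated transcripts alone (adjusted p = 0.548).

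Btg2 (ENSRNOG00000003300, chromosome 13, 55966299 to 55970058, minus strand) encodes an anti-proliferative protein that brings deadenylase to messenger RNAs. It was at 27.3, 24.6 and 36.2 FPKM in MSCs, 46.4, 57.1 and 87.4 in NPCs and 49.4, 51.4 and 59.4 with IGF-1. NPC library 3 stood out above the other libraries. The fold change of 2.02 in NPCs (95% interval 1.26 to 3.24, adjusted p = 0.0310 by limma) was only just called, and that of 1.73 with IGF-1 (1.14 to 2.61, adjusted p = 0.0404) was not. Without 1 library at a time the NPC call was lost 4 times, with log2 fold changes of 1.11 (without NPC 2), 0.75 (without NPC 3), 0.93 (without MSC 1) and 0.85 (without MSC 2) and adjusted p of 0.0575, 0.0627, 0.0918 and 0.0861. With IGF-1 the adjusted p of Btg2 passed 0.05 without NPC 2, without any 1 of the IGF-1 libraries, without MSC 1 or without MSC 2, reaching 0.127 at most. With no filter on low values it was 0.0528 in NPCs and 0.0614 with IGF-1, and with eBayes without trend 0.0474 and 0.0565. It was lower with annotated transcripts alone, at 0.0101 and 0.00287 (log2 fold changes of 1.15 and 1.05). Weighting by exon bases gave 0.00184 and 0.000746 (1.05 and 0.95).

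Ccng1 (ENSRNOG00000003256, chromosome 10, 25753833 to 25760534, minus strand) encodes cyclin G1, a partner of protein phosphatase 2A that acts back on MDM2 and p53. It was at 52.1, 59.6 and 53.6 FPKM in MSCs, 55.1, 72.2 and 55.0 in NPCs and 60.4, 68.3 and 54.1 with IGF-1. The groups overlapped, and the fold change was 1.05 in NPCs (95% interval 0.815 to 1.34, adjusted p = 0.768 by limma) and 1.04 with IGF-1 (0.838 to 1.29, adjusted p = 0.777). The intervals exclude a 2-fold change. Of the 8 genes Ccng1 is the one whose promoter window, printed above, held the p53 site with 1 mismatch.

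IGF-1 on top of EGF and bFGF gave no call among the 8 in NPCs with IGF-1 against NPCs, where 0.0211% of all genes (3 of 14228) were called. All 8 had an adjusted p of 1 by limma and none had an unadjusted p under 0.05. The libraries of both induced groups overlapped for all 8, and the groups were apart for only 9.6% of all genes. The widest interval was that of Bcl2l11, with a fold of 1.35 (95% interval 0.709 to 2.56), so that a change of 2-fold is not excluded there. For Bcl2 the fold was 0.732 (0.500 to 1.07). For Ccng1 it was 0.996 (0.804 to 1.23) and for Bak1 0.957 (0.769 to 1.19). Those for Pdcd4, Btg2, Xpc and Sesn1 lay between 0.858 and 1.18, with intervals inside 0.568 to 1.59.

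Unannotated isoforms of Bcl2l11 and Xpc were listed in induced libraries and not in MSCs. Over all annotated genes such isoforms were also more numerous in every induced library, 9181 to 10493 against 7506 to 7817 in MSC libraries. How many other genes had them in induced libraries only was not counted. Both annotated Bcl2l11 transcripts are short, the longer having 591 bases, and only these were listed in MSCs. There the 4-exon ENSRNOT00000022596 of 423 bases made up 88.7% of the FPKM on average. In the 6 induced libraries Cufflinks had assembled 17 unannotated isoforms, 10 in NPCs and 7 with IGF-1, which held 44.9 to 100% of the FPKM in NPCs and 33.3 to 100% with IGF-1. Of the 17, 10 began 2036 to 2600 bases beyond the annotated 5′ end, in 3 NPC and 2 IGF-1 libraries, and 14 ended 1540 to 1558 bases beyond the annotated 3′ end, in all 6 induced libraries. No such isoform was listed in an MSC library, where the reads behind Bcl2l11 were few.

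The fold of Bcl2l11 depended on whether these isoforms were counted. In NPC library 2 and in library 3 of the IGF-1 group the annotated transcripts were listed at 0 while unannotated ones held 10.6 and 16.7 FPKM. With annotated transcripts alone the log2 fold change was -0.12 in NPCs (adjusted p = 0.975 by limma) and 0.22 with IGF-1 (0.968). When each isoform was instead weighted by the share of annotated exon bases it covers, a choice made after the data were seen, every MSC library was at 0.946 to 2.14 FPKM and every induced library at 6.47 to 20.6, and the log2 fold change in NPCs was 2.59.

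Xpc has 1 annotated transcript, ENSRNOT00000011490, with 16 exons and 3633 bases. It carried all of the FPKM in MSCs. Partial unannotated isoforms of 8 to 15 exons were listed in 5 of the 6 induced libraries, with 25.4 to 100% of the FPKM in NPCs and up to 30.3% with IGF-1. In NPC library 2 the annotated transcript was listed at 0 and the unannotated isoforms held 16.0 FPKM. With annotated transcripts alone the log2 fold change of Xpc in NPCs was therefore -1.47 (adjusted p = 0.658), and with weighting by exon bases it was 0.95 (adjusted p = 0.00271).

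**Figure D3:**
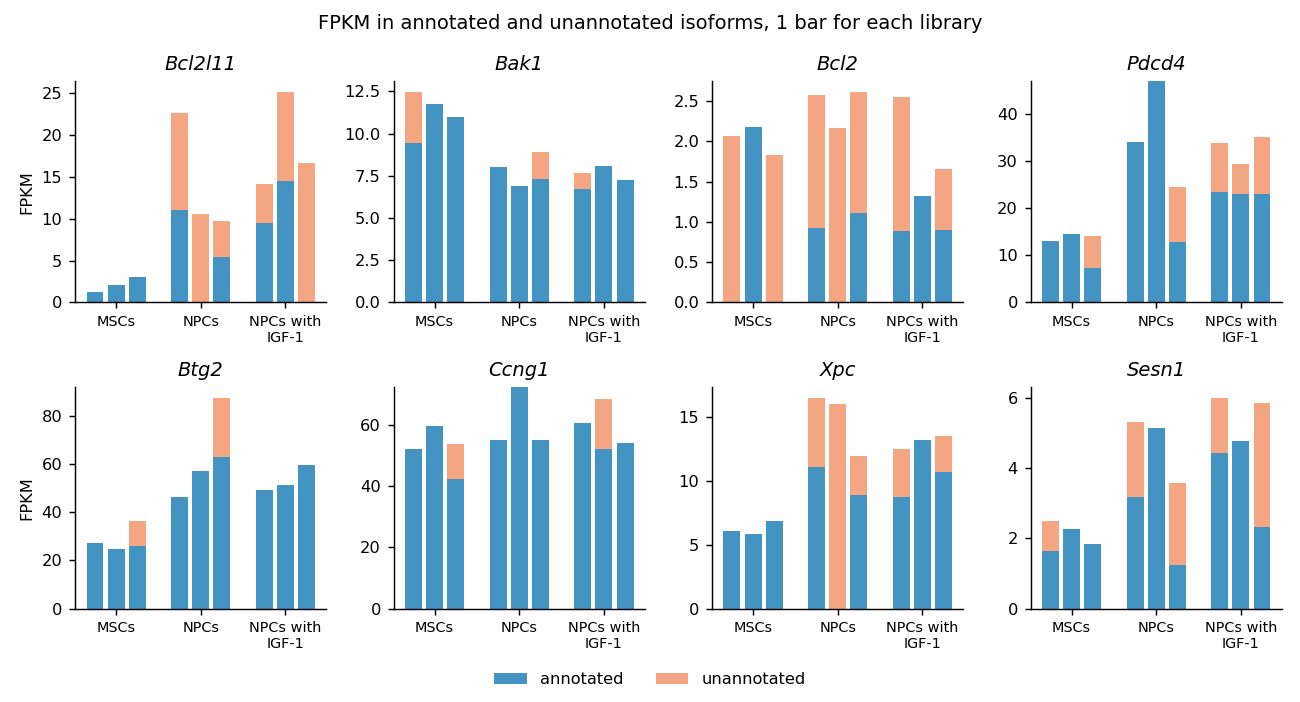
FPKM of annotated (blue) and unannotated (orange) isoforms of the 8 genes, stacked, with 1 bar for each library, numbered 1 to 3 from the left in each group. Bcl2l11 and Xpc have no unannotated isoform in MSCs and have them in 6 and 5 of the 6 induced libraries, and in the other genes they occur on both sides.

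The other genes had unannotated isoforms in MSCs as well. For Pdcd4 the annotated 12-exon ENSRNOT00000020155 was at 12.7 to 47.0 FPKM in NPCs, and 1 unannotated isoform took 48.0% in NPC library 3, others 30.5, 21.7 and 34.3% in the libraries with IGF-1 and another 47.9% in MSC library 3. The other annotated Pdcd4 transcript was listed at 0 in all libraries. Bcl2 isoforms reached up to 4793 bases beyond the annotated 3′ end and 902 bases beyond the 5′ end. For Btg2 a single-exon isoform of 832 bases held 27.9% of the FPKM in NPC library 3, and one of 831 bases 28.2% in MSC library 3. Without these, the annotated Btg2 transcript stood at 63.0 FPKM in that NPC library and at 26.0 in that MSC library, closer to the others of their groups. Ccng1 had a 7-exon isoform of 1848 bases in 1 IGF-1 and 1 MSC library, at 23.7 and 21.3% of the FPKM.

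Induced libraries also held many unannotated transcripts within the Bcl2l11 and Xpc genes that touched no annotated exon. In the Bcl2l11 gene there were 27, 27 and 12 of them in the NPC libraries, 23, 28 and 25 with IGF-1, and 0 in every MSC library. In the Xpc gene there were 15, 9 and 15 in NPCs, 5, 11 and 13 with IGF-1, and 0, 1 and 1 in MSCs. Over the whole genome induced libraries also held more such transcripts, 55132 to 80505 against 20946 to 28822 in MSC libraries. Over the 8 genes 277 were counted in all libraries, all on the strand of the gene and 275 of them of a single exon, with a median length of 247 bases. They were left out of the FPKM above. Their part in the fold changes was not tested.

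**Figure D4:**
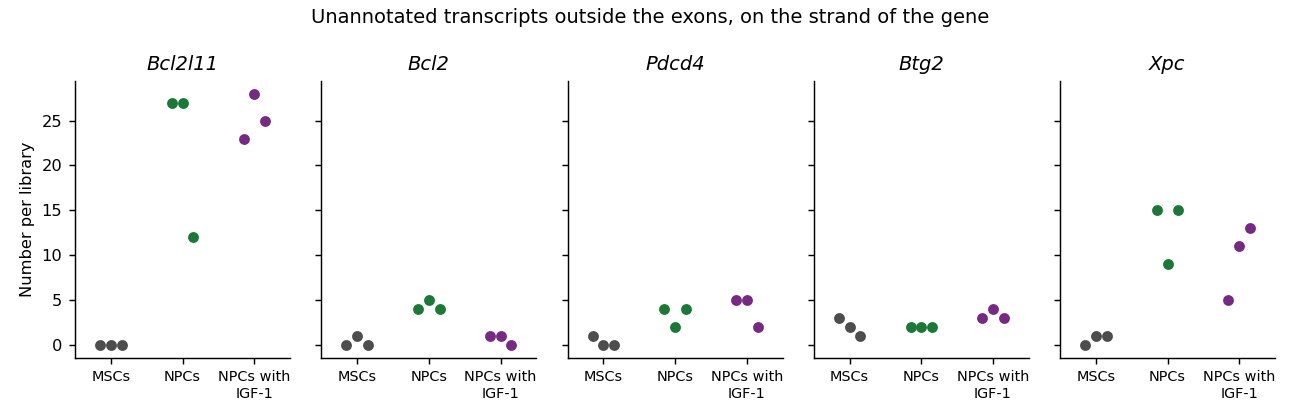
Number of unannotated transcripts outside annotated exons within 5 of the genes, on the strand of the gene, for each library of MSCs, NPCs and NPCs with IGF-1. All MSC libraries are at 0 to 3, whereas induced libraries reach 28 in Bcl2l11 and 15 in Xpc.

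The wider pathways could be followed in few genes, because the files give gene IDs and few of them are paired with a symbol in the sources used here. Of 125 other genes on 17 lists of apoptosis, p53, FoxO, BTG/TOB, sestrin, repair and translation genes, 9 could be found, and 7 passed the filter. Of these 3 were called higher and none lower in both comparisons with MSCs, and 4 were not called, while 11.7% of all genes were called higher in each. The median log2 fold change of the 7 was 0.64 in NPCs and 0.61 with IGF-1, against 0.03 and 0.05 over all genes. None was called in NPCs with IGF-1 against NPCs. No gene was found on the lists of caspases, inhibitors of apoptosis or p53 targets of the apoptosis branch.

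Ppm1d, the phosphatase WIP1 that is induced by p53 and shuts its response down, was at 2.02, 2.34 and 1.41 FPKM in MSCs and 4.08 to 5.01 in NPCs, a log2 fold change of 1.13 ± 0.21 (adjusted p = 0.00550 by limma), and of 1.16 ± 0.18 with IGF-1 (adjusted p = 0.00102). Of the BTG/TOB family to which Btg2 belongs, Btg1 rose from 62.4 ± 8.28 to 143 ± 28.5 FPKM in NPCs (log2 fold change 1.11, adjusted p = 0.00531), and was found through the study's list of differentially expressed genes. Its log2 fold change with IGF-1 was 1.31. Tob1 had a log2 fold change of 0.64 (adjusted p = 0.0115), under the fold threshold, and Btg3 one of 0.00. The FoxO target Bcl6, a transcriptional repressor, was at 4.396 ± 0.480 FPKM in MSCs and 20.2 ± 2.46 in NPCs, a log2 fold change of 2.11 (adjusted p = 0.000102). Ccng2, the other G-type cyclin and a FoxO target, was at 6.35 ± 1.31 FPKM in MSCs and 9.76 ± 3.13 in NPCs with overlapping libraries (adjusted p = 0.165). Prkab1, a subunit of AMP-activated kinase, had a log2 fold change of 0.18 in NPCs (adjusted p = 0.483). Faslg and Tp63 were under 0.1 FPKM on average in every group.

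Of the genes with a symbol and at least 1 FPKM on average (1297), those most like a member over the 9 libraries were found by Pearson's r of log2(FPKM + 0.1), as a description in which the 3 groups share 1 division into MSC and induced cells. Bcl2l11 was most like Gclc (r = 0.98) and Mapk1ip1 (0.98). Pdcd4 was nearest to Cdk19 (0.98) and Nr3c1 (0.97), Xpc to Adm (0.98) and Coq8a (0.98), and Sesn1 to Nptx1 (0.98) and Stat5a (0.98). Btg2 had Cpt1a (0.96) and Whrn (0.95), and Bak1 had Adra1d (0.98) and Cox6b2 (0.97). Bcl2 and Ccng1, which did not follow the division, had lower values, with Dusp27 (0.78) and Etv5 (0.77) for Bcl2 and Nrbf2 (0.84) and Triap1 (0.80) for Ccng1. Among the 8, Bak1 and Pdcd4 ran opposite to each other most closely (r = -0.98) and Pdcd4 and Xpc together (0.95).

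The label of the cells could be checked on few markers. Of those, Itgb1, Vim, Vcam1, Nes, Cd68, Vwf and Dcx were found through the study's list of differentially expressed genes. For them a difference between NPCs and MSCs was to some degree built in. Of 10 MSC markers 3 were found, and Itgb1 and Vim were lower in NPCs (log2 fold changes of -2.23 and -1.91) and Vcam1 higher (4.68). Of 8 neural progenitor markers 5 were found and 4 tested, of which 2 were called lower in NPCs and none higher. Those lower were Vim, which is on both lists, and Prom1, at 0.592 FPKM in MSCs and 0.0203 in NPCs (log2 fold change -2.55, adjusted p = 0.000503 by limma). Nes was higher in NPCs, at 0.305 ± 0.0200 FPKM against 0.117 ± 0.0551 in MSCs, with libraries apart. It was not called, since its log2 fold change of 0.90 (adjusted p = 0.0408 by limma) was under the fold threshold. At levels this near 0.1 FPKM the fit understates a change. Msi1 was under 1 FPKM in every group and Fabp7 was listed at 0 in all libraries. Of 9 haematopoietic and macrophage markers 3 were found, with a summed level of 9.54 to 11.4 FPKM in NPCs, 8.97 to 14.4 with IGF-1 and 0.231 to 0.502 in MSCs. Nearly all of that was Cd68, a lysosomal protein, while Ptprc and Aif1 were at 0 in all NPC libraries. The endothelial Vwf was called higher in NPCs, with 0.345 ± 0.155 FPKM against 0.0177 ± 0.00884 in MSCs (log2 fold change 1.83, adjusted p = 0.00478). The neuronal Dcx and Rbfox3 together reached 0.0433 FPKM at most. The part of other cells in the values of the 8 genes was not tested, and a change in the share of cells and in RNA per cell cannot be told apart in these bulk libraries.

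**Figure D5:**
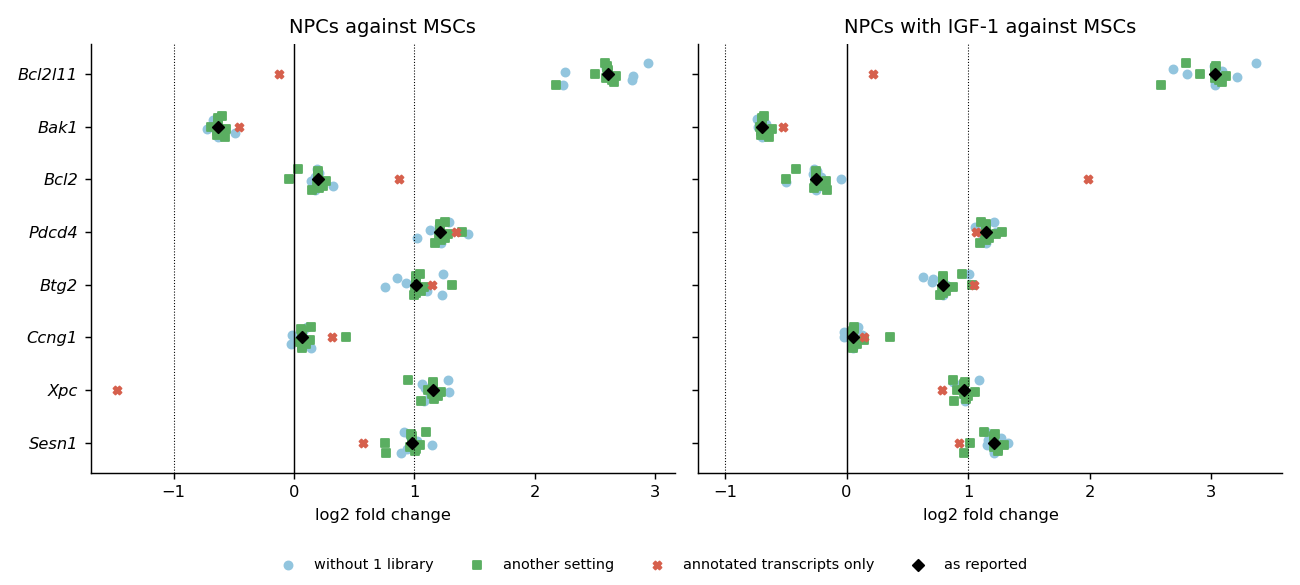
Log2 fold changes of the 8 genes against MSCs as reported (black) and under each alternative way of processing, with dotted lines at a log2 fold change of 1 in either direction. The markers for annotated transcripts only (red) stand apart for Bcl2l11, Bcl2 and, in NPCs, Xpc. Apart from these, Btg2, Xpc and Sesn1 have settings on both sides of 1 in both panels or in 1 of them.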

How the data were processed

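The study sequenced polyadenylated RNA of 9 libraries in 3 groups of 3, grouped by their labels. The deposited files hold the transcripts that the authors assembled for each library with Cufflinks, and give a linear FPKM per transcript with a confidence interval in the attribute text, an FPKM scaled within the library. The score values deposited in the same files were not used. Per the submitters' processing notes the tools were bcl2fastq in CASAVA 1.8, TopHat with Bowtie2, and Cufflinks with Cuffdiff; a genome build and an annotation release are not given in the sources used here. Counts of the paper came from another route (BBDuk, STAR, RSEM and DESeq2) and are not used here.

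FPKM of all isoforms of each gene, annotated or not, were added, scaled by median-of-ratios size factors and tested with limma 3.58.1 in R 4.3.3 (eBayes with trend and robust) on log2(FPKM + 0.1). The filter was 0.1 FPKM in 3 of the fitted libraries and, for the longest annotated transcript, 300 bases. NPCs and MSCs were fitted in 6 libraries and the IGF-1 comparisons in 9. The steps were tested on simulated data. Depth was read from the width of the FPKM intervals, taken as 2 SD on each side, and limits the precision of low values; reads behind a value follow from it and cover counting error only. Python 3.11.15 with numpy 2.4.6, pandas 2.3.3 and matplotlib 3.10.9 was used for the rest.

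The 8 genes and the gene lists were chosen with earlier results of these data known. Besides the 8, up to 4 genes of each list were named, first those called with libraries apart and then by FPKM, and for each of the 8 the 2 genes most like it. Symbols came from the paper's tables, which pair 3589 gene IDs with a symbol (2450 of them occur in the files). The alternatives were pseudocounts of 1 and 0.01, a minimum of 1 FPKM, no filter, no rescaling, quantile normalisation, a replicate block, eBayes without trend, annotated transcripts only, genes of every length, other libraries in the fit, leaving out each library and, added after the data were seen, weighting isoforms by exon bases.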

Additional observations from a re-analysis of the deposited data

Results flagged for a closer look

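Unannotated transcripts outside annotated exons, which entered no comparison, were more numerous in every induced library than in any MSC library for several of the genes. In the Bcl2l11 gene each NPC library held at least 12 of them and each library with IGF-1 at least 23, while MSC libraries held none. They covered 3602 to 11911 bases in NPCs and 8699 to 11626 bases with IGF-1 of a gene that spans 30109 bases. In the Xpc gene each NPC library held at least 9 and each library with IGF-1 at least 5, against at most 1 in MSCs. In Pdcd4 both induced groups had at least 2 in each library and MSCs at most 1. In Bcl2 each NPC library had at least 4, whereas libraries with IGF-1 and MSC libraries had at most 1. Bak1, Ccng1 and Sesn1 had at most 1 in any library. These are counts of assembled fragments, no test was run on them, and over the whole files induced libraries also held more of them, 55132 to 80505 against 20946 to 28822 in MSCs.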

How the results depend on the processing

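Over 144 fold changes of the 8 genes in NPCs against MSCs under other settings, 125 kept their direction and side of the call, 10 lost the call, 6 gained it and 5 turned, 2 of which are among the lost calls. With IGF-1 against MSCs the numbers were 154, 4, 7 and 3 of 168, and with IGF-1 against NPCs 159 were kept and 9 turned. Most gains and losses were of Btg2, Sesn1 and Xpc, whose log2 fold changes are close to 1.

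Annotated transcripts alone mattered most: with them 1 of the 8, Btg2, was called in each comparison with MSCs (with IGF-1 as a gain, at 1.05, while the calls of Bcl2l11, Pdcd4 and Sesn1 were lost), and 1191 and 1499 genes called in all, against 2957 and 3044, and 19 against 3 for IGF-1 against NPCs. Of the 8, Btg2 alone met the adjusted p there in either comparison with MSCs. Log2 fold changes that turned there were -0.12 for Bcl2l11 and -1.47 for Xpc in NPCs, 1.99 for Bcl2 with IGF-1, and, with IGF-1 against NPCs, 1.11 for Bcl2 and 2.26 for Xpc. The share of ENSRNOT00000022596 in Bcl2l11 became 100% in NPCs (from 34.6%) and with IGF-1 (from 41.4%). That of ENSRNOT00000020155 in Pdcd4 became 100% with IGF-1 (from 71.1%). In each case the other annotated transcript was listed at 0 in those libraries. In NPC library 2 and IGF-1 library 3 both annotated Bcl2l11 transcripts were at 0, so no share could be formed. A pseudocount of 1 gave 1715 and 1758 called genes against MSCs. With quantile normalisation Bcl2 in NPCs was at -0.040, and genes called in NPCs were 1270 higher and 1403 lower, against 1602 and 1355 (with IGF-1, 1277 and 1432 against 1658 and 1386). Ccng1 was then at 0.43 in NPCs (adjusted p = 0.0593 by limma) and at 0.36 with IGF-1 (adjusted p = 0.0688), against MSCs. Without rescaling Ccng1 was at 0.0098 with IGF-1 against NPCs, and the median of all genes with IGF-1 against MSCs was 0.13. For IGF-1 against NPCs, 5 genes were called with no filter and without trend, 9 with genes of every length and 1 with the replicate block.

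Without 1 library at a time the called genes numbered 2255 to 2860 in NPCs, 2717 to 3063 with IGF-1 and 1 to 10 for IGF-1 against NPCs, and the called members 3 to 4, 3 to 5 and 0. Ccng1 ranged from -0.027 to 0.14 in NPCs, from -0.024 to 0.13 with IGF-1 and from -0.084 to 0.10 between both inductions, where Pdcd4 ranged from -0.29 to 0.14, Bak1 from -0.18 to 0.043 and Btg2 from -0.42 to 0.052. Where such a fit leaves 2 libraries in a group, they are assumed to vary like the others. The labels do not say whether a replicate number marks the same rat in each group. Same-numbered libraries correlated at -0.10 to 0.10 in their deviations from the group means, and other pairs at -0.0855 to 0.0627. Same-numbered pairs of NPCs and MSCs were at 0.037, 0.10 and 0.0079. Correlations this small do not settle whether the numbers pair the samples. With the replicate block 2861 genes and 4 members were called in NPCs, 3002 and 3 with IGF-1, and no call of the 8 genes changed. Of the other genes of the lists the same 3 were called against MSCs, and 0 between both inductions, with annotated transcripts alone and with weighting by exon bases. Depth limits Bcl2l11 in MSCs, Sesn1 and Bcl2 most.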
